A study of Homo sapiens with 6 samples.

Results

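The genes described here are AXL, TYRO3 and MERTK, which form the TAM family of receptor tyrosine kinases, and GAS6 and PROS1, which encode their ligands. They are 5 of the 19775 genes that the platform annotation named by at least 1 single-gene probe set, and 10 of the 54613 probe sets on the HG-U133 Plus 2.0 array. All probe sets of a gene are given and the brightest leads. The genes were chosen by the measured group difference of AXL, known from these arrays to be higher under the RNF43 siRNA label, so the values of the 5 genes in that contrast are a description, and no p-value is given for them.

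Messenger RNA was measured on 6 arrays of cells labelled HepG2, an established line from a human liver tumour. A negative control siRNA had been transfected with Lipofectamine 2000 for 3 of them and an siRNA against RNF43, a membrane ubiquitin ligase, for the other 3, with RNA taken after 48 h. No other treatment is named for either group, and all values come from a single cell line. The arrays of a group are labelled biological replicates, but separate cultures are not stated, so errors and p-values cover only how these arrays vary, which may be technical. The antisense strands are shown because they are the named difference between the groups, with bases 2 to 8, the seed, in capitals. Matches of either strand to the transcripts of the 5 genes were not analysed here.
RNF43 siRNA: aUAAUAGCuuucuguucugtt
Negative control siRNA: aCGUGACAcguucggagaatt

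TAM receptors are single-pass membrane kinases that sense phosphatidylserine, a lipid that dying cells expose on their outer surface. GAS6 and protein S, the product of PROS1, hold the lipid through an amino-terminal domain of gamma-carboxyglutamate (Gla), made with vitamin K, and bind the receptor through their other end. AXL binds GAS6, whereas TYRO3 and MERTK bind both ligands. In liver, hepatocytes secrete protein S into plasma, MERTK is best known from macrophages that clear dead cells, and AXL is known from mesenchymal cells and from invasive tumour cells.

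Checks of the labels went against them in part. RNF43 was read by 218704_at, its only probe set above the filter. The log2 signals were 7.65, 7.79 and 7.45 on the control arrays and 8.19, 8.22 and 8.41 on the arrays labelled RNF43 siRNA. The log2 difference of 0.64 was 1.56-fold and passed as higher (limma adjusted p = 0.0098). An exact permutation test gave p = 0.1, the lowest it can give with 3 arrays against 3. As read by this probe set, RNF43 mRNA was thus higher, not lower, where the siRNA against it was named. Directions below are those of the labels. Of 9 hepatocyte markers, 8 lay below the filter on low signal (a mean log2 signal of 5.83, the median of all probe sets), among them ALB at 4.21, APOA1 at 5.18 and TTR at 5.09. AFP, the brightest of them, had means of 7.01 and 6.41. Of 7 markers of stellate cells and fibroblasts, 5 lay above the filter, led by LUM at 13.36 on the control arrays and 13.17 on the others, which did not pass (limma adjusted p = 0.0926). Of these 5, 3 fell, namely the collagen gene COL3A1 by 2.54-fold (4.94e-05), the smooth muscle actin gene ACTA2 by 1.98-fold (5.72e-04) and the proteoglycan gene DCN by 1.46-fold (0.00459), and COL1A1 did not pass (0.172). The summed linear signal of those 7 genes, to which the bright LUM gives the most, was 14600 to 14900 on the control arrays and 11600 to 12800 on the arrays labelled RNF43 siRNA. That of the hepatocyte markers was 353 to 477 and 219 to 316. All 9 macrophage markers with a probe set lay below the filter (summed signal 155 to 198 and 177 to 253, C1QB brightest, CD163 at 0 on 1 array), as did 5 of 6 endothelial markers (189 to 219 and 239 to 274, PECAM1 brightest). The levels below are therefore those of cells labelled HepG2 in which most defining transcripts of hepatocytes lay below the filter. Their part in any difference was not tested, and in such bulk RNA more cells of a type cannot be told apart from more RNA per cell.

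The 250 bases before the RefSeq starts of AXL, PROS1 and GAS6 are shown because AXL and PROS1 were higher under the RNF43 siRNA label while GAS6 was lower. AXL has 2 starts in the RefSeq table (build GRCh38.p14), and the stretches lie at chr19:41218973-41219222 and chr19:41226505-41226754 on the plus strand. Those of PROS1 (chr3:93973897-93974146) and GAS6 (chr13:113864077-113864326) lie on the minus strand. Capitals mark matches, on either strand, to a TEAD element (CATTCC), a GC box (GGGCGG) and an AP-1 element (TGANTCA, with any base taken at N). No matches overlapped.
AXL first start: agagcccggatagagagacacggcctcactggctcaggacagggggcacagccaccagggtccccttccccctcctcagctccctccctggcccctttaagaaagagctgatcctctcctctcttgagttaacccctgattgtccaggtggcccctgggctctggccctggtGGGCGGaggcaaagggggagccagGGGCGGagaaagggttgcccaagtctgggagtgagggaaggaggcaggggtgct
AXL second start: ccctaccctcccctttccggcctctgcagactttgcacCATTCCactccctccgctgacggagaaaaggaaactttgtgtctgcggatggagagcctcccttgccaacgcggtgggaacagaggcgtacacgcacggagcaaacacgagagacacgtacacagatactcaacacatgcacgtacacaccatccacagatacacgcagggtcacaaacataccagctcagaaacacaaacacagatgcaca
PROS1: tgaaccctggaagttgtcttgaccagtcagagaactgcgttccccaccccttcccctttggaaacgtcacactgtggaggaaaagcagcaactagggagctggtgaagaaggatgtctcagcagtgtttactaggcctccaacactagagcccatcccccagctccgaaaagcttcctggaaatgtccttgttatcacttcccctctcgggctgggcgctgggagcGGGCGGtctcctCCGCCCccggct
GAS6: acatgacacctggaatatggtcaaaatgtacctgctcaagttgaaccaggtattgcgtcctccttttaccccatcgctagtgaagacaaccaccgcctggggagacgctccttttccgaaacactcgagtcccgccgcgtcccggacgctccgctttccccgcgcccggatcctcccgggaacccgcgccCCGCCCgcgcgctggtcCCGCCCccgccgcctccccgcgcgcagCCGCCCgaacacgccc

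The stretch before the first AXL start held 2 GC boxes, 78 and 54 bases before the start at their first base, and neither a TEAD nor an AP-1 match. The stretch before the second held 1 TEAD match, 212 bases before the start, and no GC box. PROS1 had 2 GC boxes and GAS6 had 3. Not shown are MERTK with 4 GC boxes and the 2 TYRO3 starts. The first TYRO3 start had 3 GC boxes and 1 AP-1 match, which reads TGAATCA, and the second had no match. Among all 35116 stretches of the same length, 42.6% held a GC box, 24.3% more than 1, 11.9% a TEAD match and 6.6% an AP-1 match. A match is a string of letters, and binding was not measured.

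AXL was 1.63-fold higher on the arrays labelled RNF43 siRNA on its brightest probe set, 202686_s_at. Its log2 signals were 11.98, 11.97 and 11.92 on the control arrays and 12.70, 12.73 and 12.56 on the others. The groups did not overlap, and the lowest of the second group lay well above the highest control. The means were 11.96 ± 0.03 and 12.66 ± 0.09 (SD, n = 3), a log2 difference of 0.71 (SE 0.07, 95% confidence interval 0.55 to 0.86). As linear signal these were 3972 ± 85 and 6493 ± 391. Of the 11853 genes tested, 5.98% had a larger log2 difference in either direction. AXL spans chr19:41219223-41261766 (GRCh38.p14).

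The other AXL probe set, 202685_s_at, read a smaller and noisier difference. It gave 8.16, 7.93 and 8.16 on the control arrays and 8.50, 8.09 and 8.70 on the arrays labelled RNF43 siRNA. RNF43 siRNA replicate 2, the highest of all arrays on the brightest probe set, lay inside the control range here. The log2 difference of 0.35 had an SE of 0.17 and an interval of -0.03 to 0.72. It was 0.52 without that array, 0.21 without RNF43 siRNA replicate 3, and between those values without any other array. Both probe sets end in _s_at, a mark of probes shared by several transcripts. The gap between them, brightest minus other, was 3.87 ± 0.14 under the control siRNA and 4.23 ± 0.39 under the other (SD, n = 3). It was wider by 0.36 under the RNF43 siRNA label. Whether the sizes the probe sets gave differ was not tested. The mean of both gave 0.53.

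TYRO3, the receptor first known from the nervous system, was 1.34-fold higher on 211432_s_at. The signals were 8.03, 7.91 and 7.65 on the control arrays and 8.38, 8.16 and 8.32 on the arrays labelled RNF43 siRNA. The groups did not overlap but came close, with control replicate 1 and RNF43 siRNA replicate 2 as nearest values. The means were 7.86 ± 0.19 and 8.29 ± 0.11 (SD, n = 3), a log2 difference of 0.42 (SE 0.15). Its other probe set, 211431_s_at, lay below the filter and showed no such difference. That probe set gave 4.72, 5.26 and 6.11 against 4.79, 4.57 and 6.64, with both arrays numbered 3 highest and a log2 difference of -0.03 (SE 0.64). The pseudogene TYRO3P has probe sets of its own, both below the filter (control means 4.13 and 3.42). Their log2 differences were 0.60 and -1.73, and only for the latter did the groups not overlap. Transcripts of TYRO3P may bind TYRO3 probes, which was not analysed here. TYRO3 spans chr15:41559212-41583589.

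MERTK, the receptor of phagocytes, had a mean signal below the filter on all 3 of its probe sets. The brightest, 206028_s_at, gave 5.41, 5.61 and 4.91 on the control arrays and 5.77, 5.87 and 5.14 on the others, under the filter of 5.83 on average. The groups overlapped, and the log2 difference of 0.29 had an SE of 0.44. The probe set 211913_s_at gave 2.69, 6.13 and 0.87 against a range of 4.41 to 5.48, a control spread so wide that the difference of 1.73 had an interval of -0.89 to 4.34. The third, 211912_at, gave 4.95, 2.20 and 2.95 against 3.13, 3.41 and 4.71. No direction can be read for MERTK at these signals. The gene spans chr2:111898607-112029561.

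**Figure D1:**
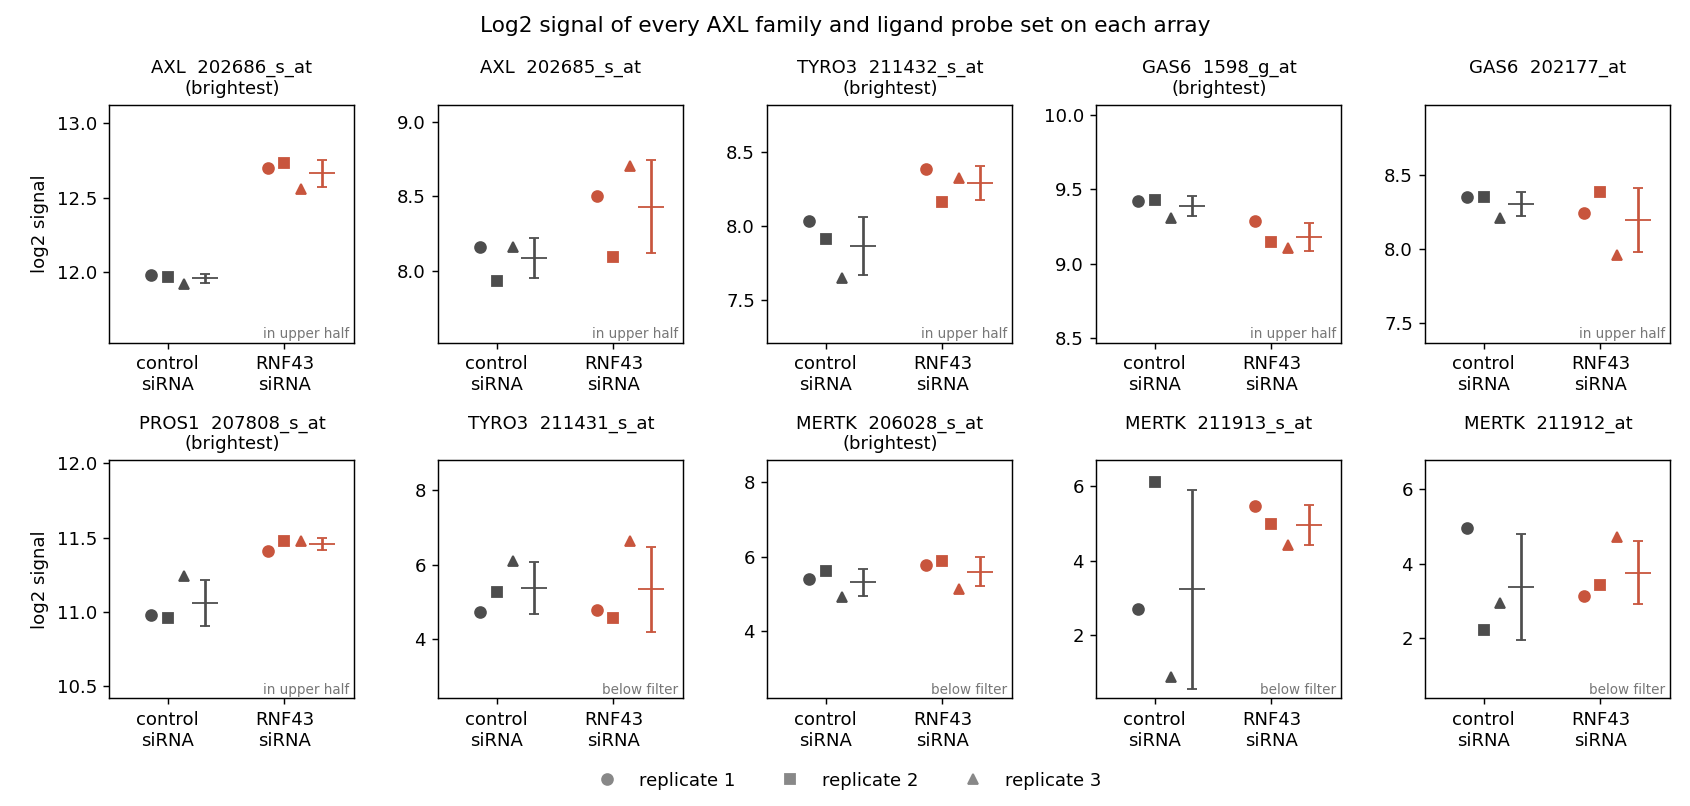
Log2 signal (vertical axis, its range differing between panels) of each of the 10 probe sets on the 3 control siRNA and 3 RNF43 siRNA arrays, with replicates by symbol and group means ± SD beside them. AXL on 202686_s_at, TYRO3 on 211432_s_at and PROS1 are higher with no overlap, GAS6 on 1598_g_at is lower with no overlap, and the 4 probe sets below the filter overlap on a vertical axis 4 times as wide.

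Of the ligands, PROS1 was higher, and GAS6 was lower by a difference whose interval reached 0. PROS1, which encodes protein S and was read by the single probe set 207808_s_at, was 1.32-fold higher. Its signals were 10.98, 10.96 and 11.24 on the control arrays and 11.41, 11.48 and 11.48 on the arrays labelled RNF43 siRNA. All 3 of the latter lay above all controls, and control replicate 3 was the nearest. The means were 11.06 ± 0.16 and 11.46 ± 0.04 (SD, n = 3), or 2143 ± 244 and 2815 ± 74 as linear signal, and the log2 difference was 0.40 (SE 0.09, interval 0.21 to 0.59). PROS1 lies at chr3:93873051-93973896, and its pseudogene PROS2P on the same chromosome is a near copy whose transcripts this probe set might also bind, which was not analysed here.

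GAS6, the ligand of all 3 receptors, was slightly lower. On its brightest probe set, 1598_g_at, it gave 9.42, 9.43 and 9.31 on the control arrays and 9.29, 9.15 and 9.11 on the arrays labelled RNF43 siRNA. The groups were separated by a narrow gap, between control replicate 3 and RNF43 siRNA replicate 1. The log2 difference of -0.20 (SE 0.09) was 1.15-fold, with an interval of -0.42 to 0.01. The other probe set, 202177_at, gave 8.35, 8.35 and 8.21 against 8.24, 8.38 and 7.96. These values overlapped, with a log2 difference of -0.11 (SE 0.14) that was 0.00 without RNF43 siRNA replicate 3. GAS6 lies at chr13:113820549-113864076, and 1 of the 2 probe sets of its antisense gene GAS6-AS1 lay above the filter, with overlapping groups (means 5.82 ± 0.81 and 6.16 ± 0.15, SD, n = 3). The other GAS6-AS1 probe set, below the filter, also overlapped (means 5.01 ± 2.06 and 3.22 ± 1.91).

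**Figure D2:**
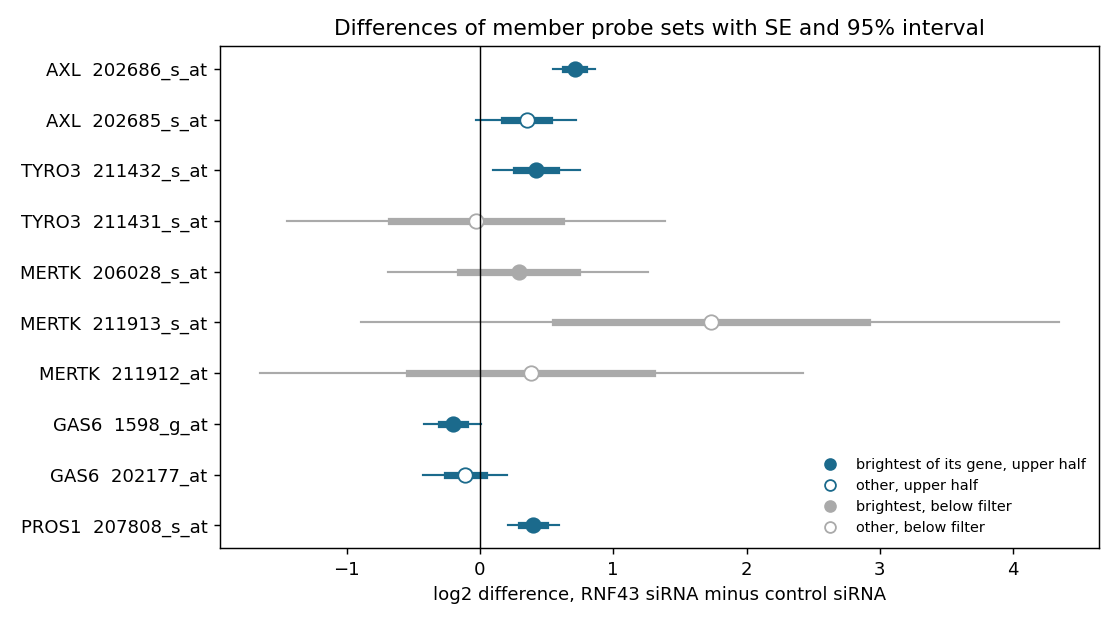
Log2 difference of each member probe set, RNF43 siRNA minus control siRNA (horizontal axis), with the SE as a thick line and the 95% interval as a thin line. AXL on 202686_s_at (0.71), TYRO3 on 211432_s_at (0.42) and PROS1 (0.40) lie right of 0 with their intervals, GAS6 (-0.20 and -0.11) lies left of 0 with intervals that reach it, and the grey probe sets below the filter have wide intervals.

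Of the 5 genes, 4 had a brightest probe set above the filter, and the groups of all 4 did not overlap, which held for 38.9% of all genes tested. Of these 4, 3 were higher (19.1% of all genes tested) and 1, GAS6, was lower (19.8%). In limma, 2 of the 4 passed an adjusted p of 0.05 (AXL and PROS1, both higher), against 22.6% of all genes. Because this contrast chose the genes, nothing is read from these counts. Of the 6 member probe sets above the filter, 4 had groups that did not overlap, against 33.8% of such probe sets on the array. Of all 10 member probe sets the same 4 did not overlap, against 22.2% of all probe sets.

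Genes with the most similar course over the 6 arrays were found by the root mean square difference of centred log2 signals. Nearest to AXL were CPA4, a carboxypeptidase, at 0.022 log2 units, NRM, a nuclear envelope protein, at 0.032, SEC23IP, a partner of the COPII coat, at 0.033, KRT7, a keratin of simple epithelia, at 0.038, and DENND1A, an exchange factor for a RAB GTPase, at 0.041. The median gene lay 0.39 from AXL, and 88 genes lay within 0.1. Like AXL, all 5 were higher under the RNF43 siRNA label (log2 differences 0.67 to 0.72), and each was lowest of that group on replicate 3. Nearest to TYRO3 were BCL2L11, which encodes the death-promoting protein BIM (0.043), MARS2, a mitochondrial methionyl-tRNA synthetase (0.050), and POLR3G, an RNA polymerase III subunit (0.062). Nearest to PROS1 were the splicing factor gene SRSF6 (0.028), the phosphatase gene PPM1B (0.032) and RBMS1, which encodes an RNA-binding protein (0.034). All 3 shared its raised control replicate 3. GAS6, with its small difference, had 1089 genes within 0.1, led by DDX49 and ZNF12 (both 0.024) and ELP5 (0.025). The genes were picked for these likenesses, so the features they share with a member follow from the choice. These likenesses rest on 6 arrays and mostly reflect the difference between the groups.

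**Figure D3:**
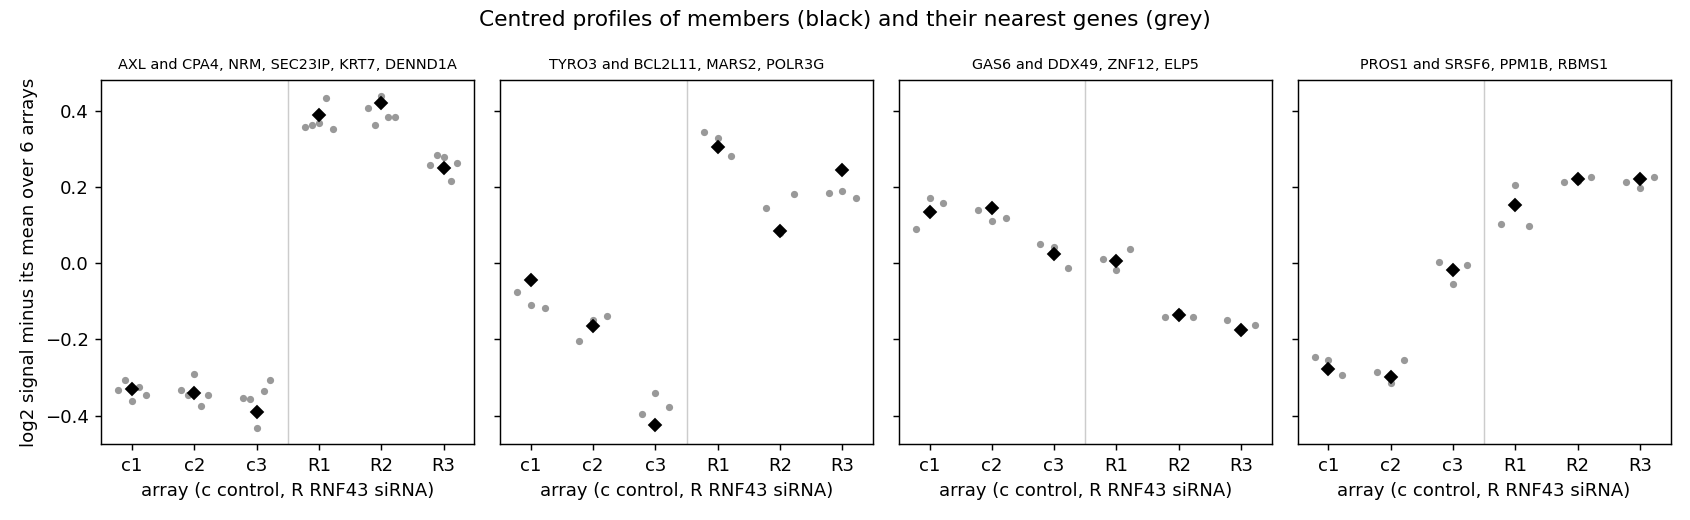
Log2 signal minus its mean over the 6 arrays (vertical axis) on each control (c1 to c3) and RNF43 siRNA (R1 to R3) array, for the brightest probe set of AXL, TYRO3, GAS6 and PROS1 (black diamonds) and their nearest genes (grey points). The 5 genes nearest to AXL share its higher level on R1 to R3 and its lower value on R3 than on R1 and R2 within 0.022 to 0.041 log2 units, and those nearest to PROS1 share its higher value on c3. The grey genes were picked for this likeness.

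Genes that make, activate or answer these receptors and ligands were grouped into 9 lists drawn from what is known of the pathway. The lists were chosen with earlier results of these data known. Of 147 genes, 133 had a single-gene probe set and 102 were tested. Of these, 19 rose and 17 fell (limma, adjusted p under 0.05), together 35.3% against 22.6% of all 11853 genes tested, where 11.5% rose and 11.1% fell. The median log2 difference was 0.03, against 0.00 over all genes. With the mean of each gene's probe sets, 8 rose and 9 fell, and 1587 genes were called in all. Because of how the lists were chosen, nothing is read from the share called.

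Transcripts of the enzymes that give GAS6 and protein S their Gla residues lay above the filter. The carboxylase gene GGCX had log2 signals of 10.93 ± 0.26 and 11.05 ± 0.07, and VKORC1, which recycles vitamin K, 12.32 ± 0.14 and 12.32 ± 0.09 (SD, n = 3). Of 7 tested genes, 1 rose and 1 fell (median 0.14). CALU, which encodes calumenin, a calcium-binding protein reported to inhibit the carboxylase, fell 1.42-fold on its brightest probe set (limma adjusted p = 4.93e-04). Of its 4 other probe sets above the filter, 3 were also lower and 229549_at was higher, by 0.34 on the log2 scale. With _x_at and _s_at probe sets left out, 229549_at was the one read, and CALU passed as higher (adjusted p = 0.0201, range over all alternatives 1.1e-05 to 0.0201). AIFM2, a quinone reductase that can reduce vitamin K, rose 1.18-fold (adjusted p = 0.0301), a call lost in 5 of the 6 fits without 1 array, all but that without control replicate 3 (0.0538 to 0.114).

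Of 11 other Gla protein genes with a probe set, 3 were tested, and the coagulation factor genes F2, F7, F9 and F10, the protein C gene PROC and PROZ all lay below the filter. PRRG4, a membrane Gla protein, rose 1.26-fold (adjusted p = 0.0335) on the brighter of 2 probe sets, while the other was lower by 0.14 on the log2 scale. That call was lost in the same 5 fits without 1 array (0.0605 to 0.134). Among 4 tested genes of protein S partners and the protein C pathway, 1 rose and 1 fell. PROCR, the endothelial protein C receptor, rose 1.27-fold (adjusted p = 0.016), lost without control replicate 1 (0.071, range over all alternatives 8.56e-04 to 0.071), and the coagulation factor gene F8 fell 1.29-fold (0.0379), lost in each fit without 1 array (0.0508 to 0.108). C4BPB, the chain of C4b-binding protein that carries protein S, was bright at 12.01 ± 0.03 and 12.14 ± 0.01 (SD, n = 3) and did not pass (0.178).

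Phosphatidylserine is moved by flippases, which keep it inside, and scramblases, which expose it. Of 8 tested genes, 1 rose and 1 fell (median 0.05). TMEM30A, the subunit that flippases need to reach the surface, had the largest difference of all 9 lists. It fell 2.40-fold, from 11.18 ± 0.11 to 9.91 ± 0.15 (SD, n = 3, adjusted p = 1.74e-05). Its 2 other probe sets above the filter were lower as well, by 0.56 and 0.23 on the log2 scale. With _x_at and _s_at probe sets left out, TMEM30A no longer passed (0.0947, range over all alternatives 3.05e-08 to 0.0947). ATP11A, a flippase, rose 1.36-fold (0.00425), with all 4 of its probe sets above the filter higher, though the call was lost with their mean (0.42) and with _x_at and _s_at probe sets left out (0.295, range over all alternatives 4.64e-04 to 0.42). The scramblase genes ANO6 and XKR8 did not pass, at log2 differences of 0.07 and 0.12. Among 8 tested genes of other receptors and bridges for this lipid, 1 rose and 2 fell (median -0.07). The integrin gene ITGAV fell 1.27-fold (0.00508) and its partner ITGB3 2.08-fold (0.0176), the latter lost without control replicate 1 or RNF43 siRNA replicate 1 or 2 (0.0512 to 0.0638). The other ITGB3 probe set above the filter, 204628_s_at, gave a log2 difference of -0.20 (SE 0.37). ITGB5 rose 1.18-fold (0.0375), lost in 5 of 6 fits without 1 array, all but that without RNF43 siRNA replicate 3 (0.0512 to 0.121). LGALS3, or galectin-3, reported as a further TAM ligand, was at 13.80 ± 0.05 and 13.88 ± 0.13 (SD, n = 3) and did not pass.

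The proteases that cut AXL and MERTK from the surface did not pass, with ADAM10 at a log2 difference of 0.03 (SE 0.06) and ADAM17 at -0.01 (SE 0.07). Of 12 tested shedding genes, 2 rose and 1 fell (median -0.03). TIMP3, an inhibitor of ADAM17, rose 1.50-fold (limma adjusted p = 0.00326), and its 3 other probe sets were higher too, by 0.22 to 1.03 on the log2 scale. NCSTN and PSEN2, subunits of gamma-secretase, fell 1.46-fold (0.00425) and rose 1.27-fold (0.0263). The mean of the NCSTN probe sets did not pass (0.0689, range over all alternatives 6.98e-04 to 0.0689). The PSEN2 call was lost without control replicate 1 or 2 or RNF43 siRNA replicate 2 or 3 (0.0519 to 0.111).

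Among adaptors and signal transducers of the receptors, 5 of 29 tested genes rose and 7 fell (median -0.08). CSK, the kinase that restrains SRC family kinases, fell 2.03-fold, from 9.65 ± 0.22 to 8.63 ± 0.14 (SD, n = 3, limma adjusted p = 3.7e-04). The transcription factor gene STAT3 fell 1.50-fold (2.31e-04), and all 4 of its probe sets above the filter were lower. Ubiquitin ligases of receptor kinases differed in direction, since CBL rose 1.78-fold (2.66e-04) and CBLB fell 1.43-fold (0.00576). The calls of CBL and CBLB were lost with the mean of their probe sets (0.182 and 0.0943, highest of ranges from 1.35e-05 and 5.61e-05 over all alternatives). The adaptor genes GRB2 and SHC1 and the kinase genes AKT1, AKT2 and SRC did not pass, with log2 differences from -0.22 to 0.04.

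Of 13 tested genes in the list of receptor kinases taken as partners of AXL, 3 rose and 2 fell (median 0.03). Pairing with AXL was not tested here. ERBB3, the kinase-impaired partner of ERBB2, rose 2.10-fold, from 6.66 ± 0.13 to 7.73 ± 0.19 (SD, n = 3, adjusted p = 0.00243), with 1 of its other probe sets higher and 1 lower. ERBB2 rose 1.41-fold (0.0187) and EPHA2, an ephrin receptor, 1.22-fold (0.0252), while IGF1R, a growth factor receptor, fell 1.41-fold (0.0241). These last 3 calls were each lost in 4 of the 6 fits without 1 array. They were lost without control replicate 1 or 2 or RNF43 siRNA replicate 1 or 3 for ERBB2 (0.0513 to 0.0706), control replicate 1 or 2 or RNF43 siRNA replicate 1 or 2 for EPHA2 (0.0543 to 0.11), and control replicate 2 or 3 or RNF43 siRNA replicate 1 or 2 for IGF1R (0.0605 to 0.103). The mean of the ERBB2 probe sets gave a log2 difference of 0.04. EGFR and MET, at 12.15 ± 0.33 and 13.16 ± 0.30 (SD, n = 3) on the control arrays, did not pass.

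Of 20 tested transcription factors reported to act on AXL, 4 rose and 3 fell (median 0.02). The coactivator gene YAP1 rose 1.81-fold, from 12.09 ± 0.04 to 12.94 ± 0.01 (SD, n = 3, limma adjusted p = 1.06e-05), and its 2 other probe sets were higher by 0.63 and 0.87 on the log2 scale. Its DNA-binding partner TEAD1 rose 1.46-fold (1.8e-04) on the brightest probe set, whereas the 2 others were lower by 0.23 and 0.19, and the mean of its probe sets did not pass (0.799, range over all alternatives 3.27e-06 to 0.799). The hypoxia factor gene HIF1A rose 1.47-fold (3.06e-04), and STAT3 is given above. Also called were WWTR1 as higher (log2 difference 0.41, limma adjusted p = 0.00246), and SNAI2 (-0.38, 0.00436) and ZEB1 (-0.28, 0.0119) as lower. How the calls of WWTR1, SNAI2 and ZEB1 held under the alternatives was not examined gene by gene. SP1 and SP3, which bind GC boxes, did not pass at log2 differences of 0.19 and 0.08. Nor did the AP-1 genes JUN (-0.29), JUNB (0.04), FOSL1 (-0.16) and FOSL2 (0.15).

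**Figure D4:**
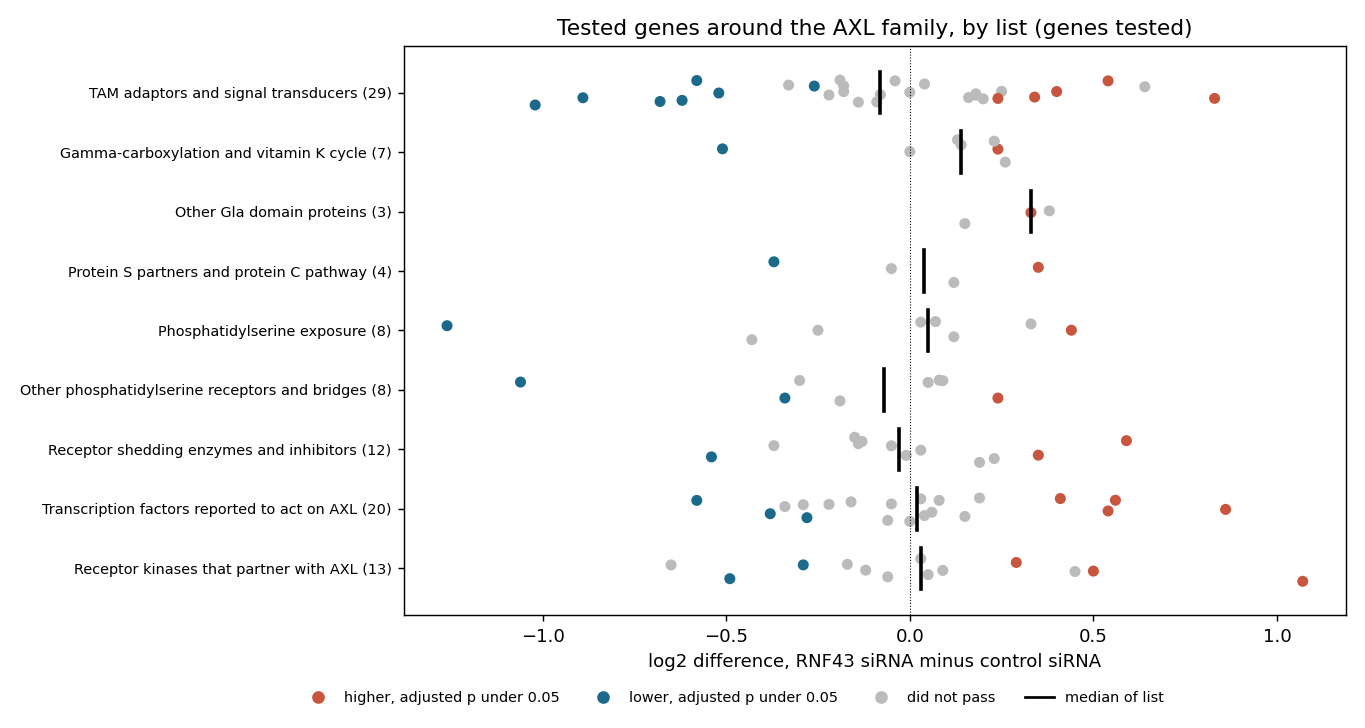
Log2 difference, RNF43 siRNA minus control siRNA (horizontal axis), of each tested gene in 9 lists around the AXL family, with the number tested in brackets and the list median as a black bar; vertical scatter within a list has no meaning. Medians lie between -0.08 and 0.33, and genes that rose and genes that fell stand together in 8 of the 9 lists.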

How the data were processed

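The authors' deposited values are log2 signals of Affymetrix HG-U133 Plus 2.0 arrays, and the submitters' processing notes name MAS5, an algorithm that subtracts a mismatch signal and scales every array. The sources used here give neither a version nor a scaling target, and base 2 was read from the values. Scaling to a common mean hides a shift of all transcripts one way, and mismatch subtraction makes dim probe sets noisy. Array medians were 5.89 to 6.02, and the number of arrays, 3 per group by title, limits the precision. No array was a copy of another, with at most 0.00185% of values above 0 exactly equal between any pair.

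Values were used as given. Of 54613 probe sets, 41091 named 1 gene, 1801 several and 11721 none here. A gene was read by its brightest single-gene probe set and tested if its mean over 6 arrays passed a filter at the upper 50% of probe sets (a log2 signal of 5.83). This kept 11853 genes, with RNF43 always tested. Symbols were updated to RefSeq through gene identifiers, and promoter sequences and gene positions are RefSeq's for GRCh38.p14, where all 5 genes matched. The test was limma's (version 3.58.1, R 4.3.3), using lmFit and then eBayes with a trend on intensity. It was two-sided, with Benjamini-Hochberg adjustment over all genes tested and 0.05 as threshold. Errors of member differences come from the same model over all probe sets. The steps were tested on simulated data. The members and lists were chosen with earlier results of these data known. Named genes are the members, RNF43, in each list up to 4 called genes with the smallest p whose groups did not overlap, the nearest profiles (5 for AXL, 3 for the others) and the brightest marker of each marker list. All other genes named (further markers, further list members, called or not or below the filter, and the pseudogenes and antisense gene of the members) were chosen after values were seen. Alternatives covered normalization, added signal, filter, probe set choice, variance model, a replicate block and leaving out each array.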

Additional observations from a re-analysis of the deposited data

How the results depend on the processing

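Both AXL and PROS1 were higher, and GAS6 lower, on their brightest probe sets under every alternative that gave them a value. Without 1 array the log2 differences were 0.68 to 0.76 for AXL, 0.32 to 0.51 for TYRO3, 0.09 to 0.51 for MERTK, -0.26 to -0.17 for GAS6 and 0.35 to 0.49 for PROS1. Averaging all probe sets of each gene, AXL gave 0.53, TYRO3 0.20 and MERTK 0.80. With _x_at and _s_at probe sets left out, AXL, TYRO3 and PROS1 had no value. The dim TYRO3 probe set 211431_s_at turned to 0.02 after quantile normalization, 0.00 with arrays centred, 0.01 and 0.03 with 16 or 64 added to the linear signal, and lay between -0.68 and 0.35 without 1 array. Differences of the dim MERTK probe set 211912_at lay between -0.20 and 1.18, those of 211913_s_at between 0.55 and 3.18 without 1 array, and those of GAS6 on 202177_at between -0.20 and 0.00.

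The count of changed genes was 2684, 1587 with the mean of probe sets, 3908 with the replicate block, and 1741 to 2656 without 1 array, lowest without RNF43 siRNA replicate 2. RNF43 kept its call (log2 difference 0.55 to 0.72 without 1 array). Over all 9 lists, 19 rose and 17 fell, 8 and 9 with the mean of probe sets, and 10 to 18 and 12 to 16 without 1 array. Small lists shifted by a few genes. Adaptors gave 0 risen and 4 fallen with the mean, 4 fallen with the upper 30% of probe sets, 3 risen without an intensity trend, and 2 to 6 risen and 3 to 6 fallen without 1 array. For the transcription factors the mean gave 2 risen (4 to 5 and 3 to 4 without 1 array). All other lists ranged from 0 to 3 risen and 0 to 3 fallen over all alternatives. With _x_at and _s_at probe sets left out, CALU turned from a fall to a call as higher (0.34, adjusted p = 0.0201), and the calls of TMEM30A, ATP11A and ITGB5 were lost. The mean of probe sets also ended the calls of PRRG4, ITGB5, PSEN2, ERBB2 and IGF1R, and a fit without an intensity trend those of AIFM2, PROCR, ITGB5, IGF1R and EPHA2. Deviations from the group means correlated across genes at 0.16, 0.08 and 0.27 between arrays numbered 1, 2 and 3. Each RNF43 siRNA array correlated best with the control of its own number. Control replicate 2 was about as close to RNF43 siRNA replicate 1 (0.09). The labels do not state that arrays were paired, so the main fit left the numbers out. Whether they pair the arrays was not tested, and the errors and p-values of the main fit take no account of it. In these data, dim probe sets limit MERTK.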
